A study of Mus musculus with 39 samples.

Results

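The thioredoxin, peroxiredoxin and sulfiredoxin system was followed in the lungs of mice exposed to mainstream tobacco smoke (MTS), as every array probe whose symbol in the platform annotation is Txnrd1, Txnrd2, Txn1, Txnip, Srxn1, Prdx1, Prdx2, Prdx5 or Prdx6. Of these 9 genes, 7 were matched by 8 probes, Srxn1 having 2, out of 20868 gene probes on the array. All 8 probes were among the 17560 that passed the filter on dim signal, and each was above the negative control threshold on 39 of 39 arrays. Prdx5 and Prdx6 had no probe under those symbols and were not analysed here. The genes were taken by name, with earlier results of these data known.

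Thioredoxin (Txn1) is a small cytosolic protein that passes electrons to oxidized proteins, and thioredoxin reductase 1 (Txnrd1), a selenoenzyme, restores it with NADPH. Peroxiredoxins use those electrons to remove hydrogen peroxide. When peroxide is in excess their active cysteine is over-oxidized, and sulfiredoxin (Srxn1) repairs it, while Txnip binds reduced thioredoxin and inhibits it. Several genes of the system are known targets of Nrf2, a transcription factor that electrophiles and oxidants release from its inhibitor.

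RNA from the frozen left lung of 39 male C57BL/6 × CBA F1 hybrid mice was labelled with Cy5 and hybridized with Cy3-labelled universal mouse reference RNA, 1 mouse per array. The labels give an age of 8 to 10 weeks for all groups, which by the study's methods was the age when exposure began, so lungs of longer exposures and of break groups came from older mice. Smoke mice breathed MTS from 2 cigarettes daily on 5 days a week for 6 or 12 weeks, which included a lead-up of 2 weeks, and sham mice were only placed in restrainers. The smoke groups (6 week smoke, 12 week smoke, 6 week smoke and break, 12 week smoke and break) were matched by 6 week sham, 12 week sham, 6 week break sham and 12 week break sham. The break was 6 weeks without exposure, and the groups without it were taken 3 hours after the last cigarette. The time label reads 3 hours in every group, also in those with a break, and which mice had a break was taken from the sample titles and the study's description. There were 5 mice in each group, but 4 in 12 week smoke. Values are log2 ratios of lung to reference RNA, and since the reference was the same on every array, a difference between groups is a difference between lungs. In whole lung, fewer cells of a type and less RNA per cell cannot be told apart.

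The median Cy5 signal of an array was 268 to 1530, or 2.2 to 8.94 times local background, and 48.4% to 94.6% of probes were above the negative control threshold. The lung markers Sftpc, Sftpb, Scgb1a1 and Ager were above it on 39 of 39 arrays. The array labelled 6 week sham replicate 2 went against its label. Its log2 ratio of Cyp1a1, a cytochrome P450 that smoke induces through the aryl hydrocarbon receptor, was 6.46, against 5.07 to 8.06 on the 9 arrays of smoke mice without a break and 0.45 to 2.81 on the other 29 arrays. Cyp1b1, induced by the same receptor, was at 2.00 on it, against 1.47 to 2.32 on those 9 arrays and −1.74 to −0.28 on the other 29. The array was kept under its label, and the 6 week differences of the members are also given without it.

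Txnrd1 and Srxn1 were the members that rose in smoke-exposed lungs, and in lungs taken after the break Txnrd1 and probe a of Srxn1 lay within the range of unexposed lungs. Probe b of Srxn1 was 0.25 higher on the log2 scale in 6 week smoke and break than in its break sham, and did not pass the test. At 12 weeks Txnrd1 was 2.29-fold and Srxn1 (its probe a) 3.19-fold higher in smoke than in sham. At 6 weeks Txnrd1 was 1.86-fold higher, or 2.10-fold without the array labelled 6 week sham replicate 2. Srxn1 probe a was 1.60-fold higher at 6 weeks and did not pass, and was 1.99-fold higher and passed without that array. The other probes, among them that of thioredoxin itself and those of both peroxiredoxins, did not pass the test in any comparison of smoke with sham.

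Txnrd1 lies on chromosome 10, and its probe (A_51_P320614) had a median Cy5 signal of 13600. At 6 weeks its log2 ratio was 0.30, 0.48, 0.36, 0.84 and 0.49 in the 5 smoke lungs, against −0.85, 0.57, −0.51, −0.49 and −0.43 in the 5 sham lungs, where 0.57 belongs to the array labelled 6 week sham replicate 2. All 5 smoke lungs lay above 0, and 4 sham lungs lay below every smoke lung. The groups averaged 0.49 ± 0.21 in smoke and −0.34 ± 0.53 in sham (SD, n = 5 each), and sham was at −0.57 ± 0.19 without that array (SD, n = 4).

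At 12 weeks Txnrd1 was at 0.50, 0.68, 0.40 and 0.14 in the 4 smoke lungs, against −0.65, −0.78, −0.78, −0.65 and −0.61 in the 5 sham lungs. The lowest smoke lung was above the highest sham lung, so the groups did not overlap. The share of all probes whose groups separate like this was not computed, for Txnrd1 or any other member. After the break it was at −0.63, −0.66, −0.60, −0.80 and −0.40 in 6 week smoke and break, against −0.53, −0.81, −0.84, −0.82 and −0.30 in 6 week break sham. It was at −0.69, −0.84, −0.57, −0.63 and −0.65 in 12 week smoke and break, against −0.89, −0.76, −0.81, −0.76 and −0.48 in 12 week break sham. No lung of a smoke and break group was outside the range of its break sham. The 9 arrays of smoke mice without a break ran from 0.14 to 0.84 and 29 of the other 30 from −0.89 to −0.30, while the array labelled 6 week sham replicate 2 lay within the smoke range at 0.57.

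Srxn1 lies on chromosome 2. Its probe a (A_51_P474892) had a median Cy5 signal of 3340 (784 to 15200 over the arrays) and its probe b (A_51_P330125) one of 429 (226 to 1340). At 6 weeks probe a was at −0.15, 0.068, −0.39, 0.76 and 0.099 in smoke, against −0.88, 1.04, −1.16, −0.92 and −0.75 in sham. The array labelled 6 week sham replicate 2 held the 1.04, the highest value of this probe in the series, and the other 4 sham lungs were below all 5 smoke lungs.

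At 12 weeks Srxn1 probe a was at 0.75, 0.69, 0.60 and 0.018 in smoke, against −1.02, −0.98, −1.32, −0.78 and −1.21 in sham. The groups did not overlap, and 3 of the 4 smoke lungs lay close together with the other well below them. In the 10 lungs of smoke and break groups it ran from −1.36 to −0.79, and in the 10 of break sham from −1.43 to −0.81, so these ranges overlapped. The 9 arrays of smoke mice without a break ran from −0.39 to 0.76 and 29 of the other 30 from −1.43 to −0.75, while the array labelled 6 week sham replicate 2 lay above them all at 1.04.

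Srxn1 probe b followed in the same direction with a smaller difference. At 12 weeks it was at 0.19, 0.18, 0.11 and −0.34 in smoke, against −0.39, −0.28, −0.16, −0.88 and −0.56 in sham. Here 3 of 4 smoke lungs were above all sham lungs, and the other was among them. At 6 weeks it ran from −0.28 to 0.28 in smoke and from −0.64 to 0.28 in sham, or from −0.64 to −0.17 without the array labelled 6 week sham replicate 2.

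**Figure D1:**
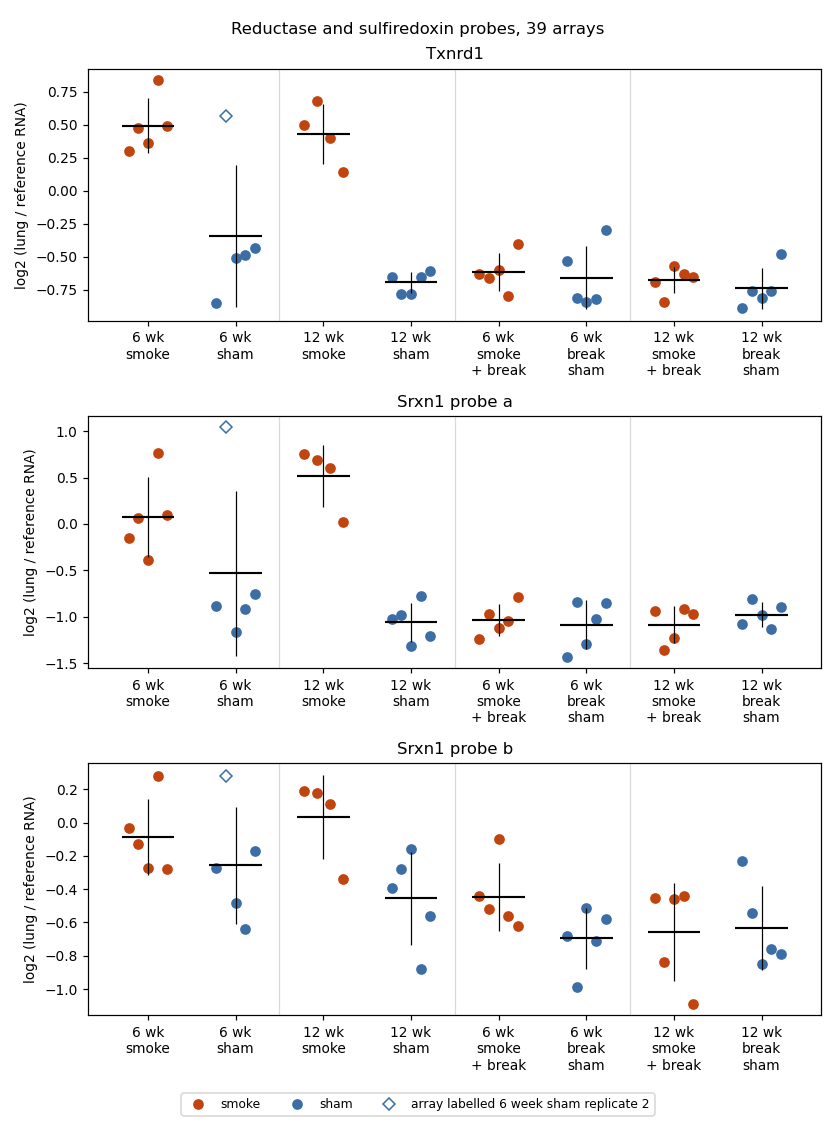
Log2 ratio of lung to reference RNA (vertical axis) for Txnrd1 and both Srxn1 probes in the 8 groups, 1 point per lung, with horizontal bars for group means and vertical lines for 1 SD. Txnrd1 lies between 0.14 and 0.84 in the 9 smoke lungs without a break and at −0.30 or below in 29 of the other 30 lungs, the open diamond at 0.57 being the array labelled 6 week sham replicate 2.

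In the limma model of all 39 arrays, Txnrd1 was 1.19 ± 0.14 (SE) higher on the log2 scale in 12 week smoke than in 12 week sham, with an adjusted p of 1.14e-05. Srxn1 probe a was 1.67 ± 0.23 (SE) higher there, with an adjusted p of 7.43e-05. These were 2 of the 8 member probes, both upward, against 0.433% of all 17560 probes called in that comparison, of which 66 rose and 10 fell. Probe b of Srxn1 differed by 0.49 ± 0.17 (SE), with an unadjusted p of 0.00761 and an adjusted p of 0.286 in limma, and so did not pass. The median over the 8 member probes was 0.24, and over all probes 0.0054. When only the 2 groups of the comparison were fitted, Txnrd1 stood at 1.14 with an adjusted p of 0.103 in limma.

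In 6 week smoke Txnrd1 was 0.90 ± 0.14 (SE) higher than in 6 week sham, with an adjusted p of 0.00104 in limma. It was the only member probe called, 1 of 8, against 0.0626% of all probes. Srxn1 probe a was 0.68 ± 0.22 (SE) higher, with an unadjusted p of 0.00388 and an adjusted p of 0.34 in limma. It thus did not pass with all arrays, but passed with array quality weights and when the array labelled 6 week sham replicate 2 was left out. Without that array Txnrd1 was 1.07 ± 0.10 (SE) and 2.10-fold higher (adjusted p = 8.25e-08 in limma). Srxn1 probe a was then 0.99 ± 0.14 (SE) and 1.99-fold higher (adjusted p = 0.000277 in limma). That made 2 of 8 member probes, against 0.188% of all probes. Probe b of Srxn1 differed by 0.17 with that array and 0.31 without it, and passed in neither. At 12 weeks the same omission left 2 of 8, against 0.518% of all probes.

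The 6 week call of Txnrd1 was lost in 2 other ways of processing. With spots marked by the scanner software at weight 0, which takes out the Txnrd1 spot of 10 arrays, it was 0.75 higher with an adjusted p of 0.101 in limma. With only the 2 groups in the fit it was 0.93 higher with an adjusted p of 0.94.

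Averaged over both durations, Txnrd1 was 1.05 ± 0.099 (SE) and Srxn1 probe a 1.18 ± 0.16 (SE) higher in smoke than in sham, with adjusted p of 5.37e-08 and 5.31e-05 in limma. These were 2 of 8 member probes against 1.22% of all probes, or 1.62% without the array labelled 6 week sham replicate 2. Srxn1 probe b was 0.33 higher with an adjusted p of 0.20. The 2 probes of Srxn1 thus had the same sign and only probe a passed.

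Whether the increase was larger after the longer exposure was tested as the 12 week difference minus the 6 week difference. No probe of the array passed this test in limma (0 of 17560, 0%), while 854 had an unadjusted p under 0.05. Srxn1 probe a had a 12 week difference that was 0.99 higher than its 6 week one, with a 95% confidence interval of 0.36 to 1.63, an unadjusted p of 0.00334 and an adjusted p of 0.971. Without the array labelled 6 week sham replicate 2 it was 0.65 higher (0.23 to 1.07). For Txnrd1 the value was 0.30 (−0.10 to 0.69), or 0.10 (−0.19 to 0.40) without that array. Between unexposed lungs of 12 week sham and 6 week sham no member was called either (0% of all probes, with 1205 at an unadjusted p under 0.05 in limma), and Txnrd1 and Srxn1 probe a were 0.29 and 0.46 lower at 12 weeks, or 0.12 and 0.15 lower without it.

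After the break, Txnrd1 was 0.042 (95% confidence interval −0.23 to 0.31) higher in 6 week smoke and break than in 6 week break sham, and 0.065 (−0.21 to 0.34) higher in 12 week smoke and break than in 12 week break sham. Srxn1 probe a differed by 0.050 (−0.39 to 0.49) and by −0.10 (−0.54 to 0.33). Srxn1 probe b differed by 0.25 (−0.082 to 0.57) and by −0.022 (−0.35 to 0.30). Its 6 week value after the break was thus no smaller than its 6 week smoke difference of 0.17, and neither passed. For Txnrd1 and Srxn1 probe a the upper bounds after the break were under the differences measured 3 hours after smoke at the same duration. Those differences have errors of their own. For Srxn1 probe a at 6 weeks the smoke difference was not called, and its interval (0.24 to 1.12) overlapped that after the break. In limma 0% of all probes were called in the 6 week and 0% in the 12 week comparison, with 758 and 1129 probes at an unadjusted p under 0.05.

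The smoke effect without the break minus that with the break, each averaged over durations, was tested directly. It was 0.99 ± 0.14 (SE) for Txnrd1, with an adjusted p of 0.000154 in limma, and 1.2 ± 0.22 (SE) for Srxn1 probe a, with an adjusted p of 0.00824. That was 2 of 8 member probes against 0.125% of all probes. Without the array labelled 6 week sham replicate 2 the values were 1.07 (adjusted p = 3.47e-08) and 1.34 (adjusted p = 4.09e-07), against 0.547% of all probes. With no block for the label runs, Srxn1 probe a was at 1.12 with an adjusted p of 0.0774. Between break sham and sham 0 of 8 member probes were called, against 0.911% of all probes in limma, and 2 of the 8 had an unadjusted p under 0.05. These were Srxn1 probe b at −0.31 (unadjusted p = 0.0114 in limma) and Txn1 at −0.21 (0.0392). Without the array labelled 6 week sham replicate 2 they were at −0.24 and −0.17.

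**Figure D2:**
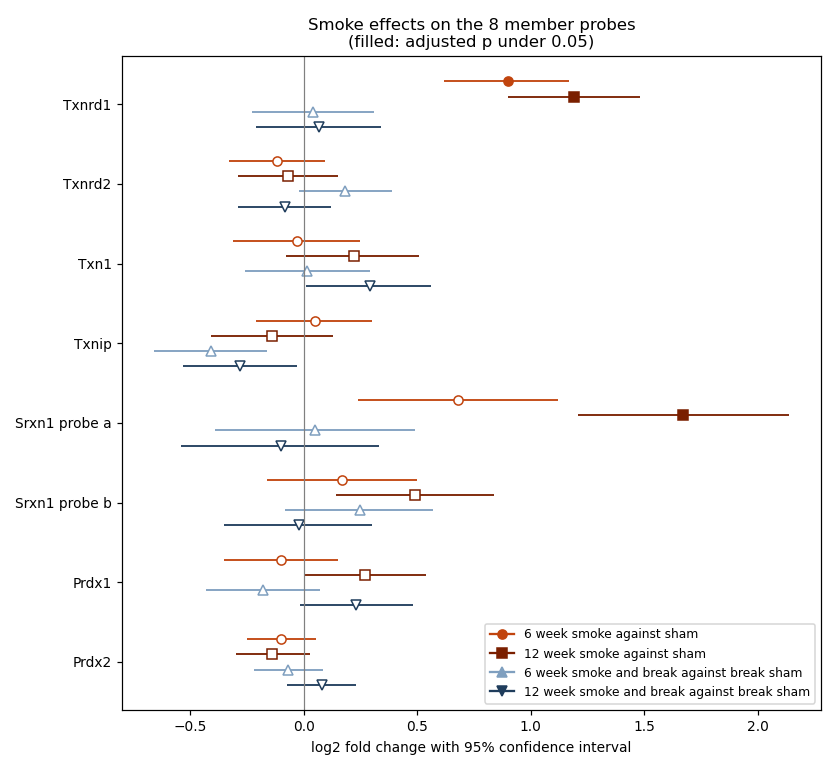
Log2 fold change with its 95% confidence interval (horizontal axis) for each of the 8 member probes in the 4 comparisons of smoke with its sham, filled where the adjusted p was under 0.05. Txnrd1 at 0.90 and 1.19 and Srxn1 probe a at 1.67 are filled, and all symbols of the break comparisons are open.

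The arrays fall into 5 runs in the order of their exposure-date labels, and each run holds every group but for run 4, without 6 week sham, and run 5, without 12 week smoke. Run 5 holds both replicate 2 and replicate 5 of 6 week sham. In label order its replicate 2 falls between 6 week break sham and 12 week sham, the place of 12 week smoke in the other runs. Whether samples were exchanged was not tested. Within the 4 runs that hold a pair, Txnrd1 was higher in 12 week smoke in 4 of 4, by 0.75 to 1.46, and in 6 week smoke in 4 of 4, by 0.77 to 1.15. Srxn1 probe a was higher in 4 of 4 at each duration, by 1.22 to 1.91 at 12 weeks and 0.53 to 1.26 at 6 weeks. Srxn1 probe b, which passed no test, was also higher in 4 of 4 at each duration, by 0.22 to 0.59 at 12 weeks and by 0.20 to 0.37 at 6 weeks. Without the array labelled 6 week sham replicate 2, which belongs to run 5, the 6 week ranges were 0.85 to 1.27 for Txnrd1, 0.53 to 1.51 for Srxn1 probe a and 0.20 to 0.45 for Srxn1 probe b. In the break groups Txnrd1 was higher in 3 of 5 runs at each duration. The share of all probes with the same sign in every run was not computed. Counts of runs are therefore description only, for these and the other members.

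**Figure D3:**
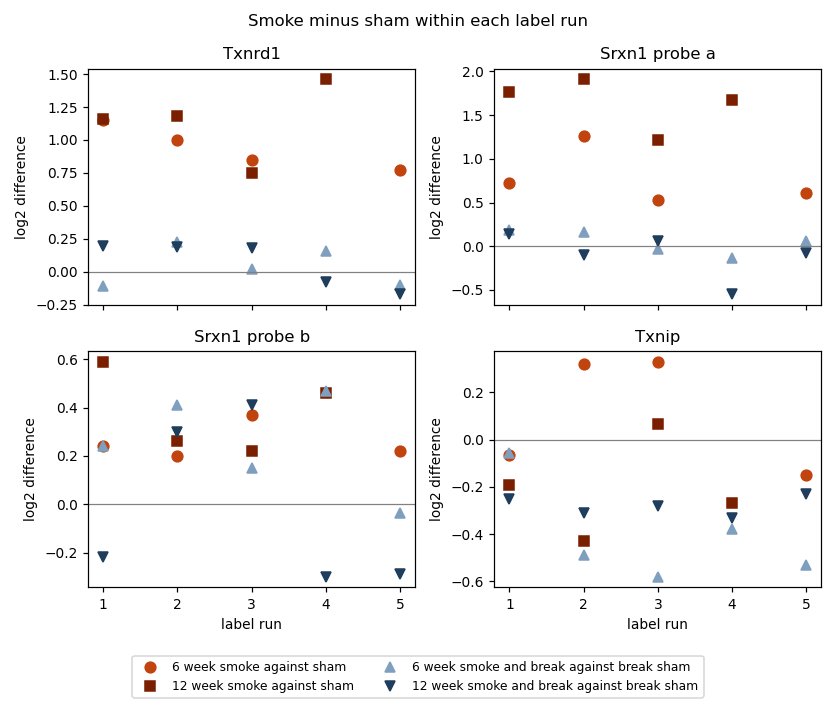
Difference of log2 ratios, smoke minus sham, within each of the 5 label runs (horizontal axis) for Txnrd1, both Srxn1 probes and Txnip. For Txnrd1 and Srxn1 probe a all circles and squares (without a break) lie above 0, and for Txnip all triangles (with a break) lie below it.

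The promoters of Txnrd1, Srxn1 and Prdx1 are shown because they were the members with a match to the core of the antioxidant response element, the sequence that Nrf2 binds with its partners. The core was searched as TGACNNNGC or TGAGNNNGC on both strands, which differ only in their last letter before the gap, in 300 bases from 250 before to 50 after each start of transcription in RefSeq (GRCm38.p6). Matches are in capitals, and each sequence is the plus strand, on which all 3 genes lie. Txnrd1 has 3 starts in RefSeq, and the second is shown, chr10:82858956-82859255, with 1 match. Srxn1 is chr2:152105274-152105573, with 3 matches, and Prdx1 is chr4:116685349-116685648, with 2.
Txnrd1: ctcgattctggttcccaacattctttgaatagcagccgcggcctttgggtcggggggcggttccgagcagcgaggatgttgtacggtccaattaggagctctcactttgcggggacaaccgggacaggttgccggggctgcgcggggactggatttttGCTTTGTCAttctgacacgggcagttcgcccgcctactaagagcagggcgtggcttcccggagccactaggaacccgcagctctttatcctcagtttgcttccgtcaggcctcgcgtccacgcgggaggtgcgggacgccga
Srxn1: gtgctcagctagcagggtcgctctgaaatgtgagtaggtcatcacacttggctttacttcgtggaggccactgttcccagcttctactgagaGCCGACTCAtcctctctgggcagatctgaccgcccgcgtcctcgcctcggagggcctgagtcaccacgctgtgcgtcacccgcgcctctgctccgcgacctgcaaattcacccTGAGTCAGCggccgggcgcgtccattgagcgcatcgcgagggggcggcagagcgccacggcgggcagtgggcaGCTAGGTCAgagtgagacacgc
Prdx1: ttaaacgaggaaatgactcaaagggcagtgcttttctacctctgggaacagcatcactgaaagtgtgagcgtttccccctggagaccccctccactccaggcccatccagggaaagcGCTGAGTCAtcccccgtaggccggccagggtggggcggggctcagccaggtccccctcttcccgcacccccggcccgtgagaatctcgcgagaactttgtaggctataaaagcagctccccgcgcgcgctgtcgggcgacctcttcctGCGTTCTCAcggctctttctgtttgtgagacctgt

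The Txnrd1 match lies 92 bases before the start. Those of Srxn1 lie 158 and 45 bases before it and 28 after it, and those of Prdx1 133 before and 15 after it. The table held 10 promoters of 8 member genes. Either form was found in 3 of the 10, against 27.8% of all 32851 promoters of the same length, so a match is common. GCGTG, the core bound by the aryl hydrocarbon receptor, occurred in 8 of the 10 and in 32.4% of all promoters. CACGTG, an E-box of the kind found in glucose-responsive genes, occurred in 0 of the 10 and in 7.15% of all. Only this exact sequence was searched, so the count does not show that Txnip or another member lacks an E-box of a different spelling. Txnip, Txn1, Txnrd2, Prdx2 and Prdx5 held neither form of the antioxidant core in this window.

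Txnrd2, the mitochondrial thioredoxin reductase, lies on chromosome 16. It ran from −0.57 to −0.39 in 6 week smoke, against −0.61 to −0.039 in 6 week sham, and from −0.58 to −0.42 in 12 week smoke, against −0.57 to −0.38 in 12 week sham. The groups overlapped at both durations, and the differences were −0.12 (95% confidence interval −0.33 to 0.092) and −0.068 (−0.29 to 0.15). Without the array labelled 6 week sham replicate 2 the 6 week difference was −0.14. In 6 week smoke and break it was at −0.27, −0.20, −0.095, −0.16 and 0.029, against −0.50, −0.29, −0.45, −0.31 and −0.07 in 6 week break sham. It was higher in 5 of 5 runs there, by 0.091 to 0.35, but only 1 lung lay above all of break sham and limma gave 0.18 with an adjusted p of 0.999.

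Txn1 lies on chromosome 4, and its probe was bright, with a median Cy5 signal of 34500. Its Cy5 signal was at the scanner limit on 6 arrays, all of the first label run, so the lung signal there is only a lower bound. The scanner software marked its spot on 36 of 39 arrays, on 36 in Cy3 and on 13 in Cy5. Whether Cy3 was also at the limit was not examined. Txn1 was at −0.12, −0.54, −0.57, −0.60 and −0.55 in 6 week smoke, against 0.27, −0.29, −0.61, −0.93 and −0.67 in 6 week sham. It was at 0.08, −0.45, −0.47 and −0.67 in 12 week smoke, against −0.16, −1.01, −0.61, −0.80 and −0.56 in 12 week sham. The highest value of each of these groups came from the first label run, in which Txn1 had a median of −0.02 over 8 arrays, against medians of −0.74 to −0.61 in the other 4 runs. With the run as a term of the model and the arrays at the limit kept, the 6 week difference was −0.028 (95% confidence interval −0.31 to 0.25). The 12 week difference was 0.22 (−0.078 to 0.51), and the adjusted p were 0.981 and 0.705 in limma. Without the array labelled 6 week sham replicate 2 the 6 week difference was 0.042, with the sign turned.

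Txn1 averaged −0.59 ± 0.19 in 12 week smoke and break and −0.88 ± 0.13 in 12 week break sham (SD, n = 5 each). The difference was 0.29, with an unadjusted p of 0.0428 and an adjusted p of 0.753 in limma, and it was 0.13 without 12 week break sham replicate 1. In the 6 week comparison after the break it was 0.015.

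Txnip, the inhibitor, lies on chromosome 3. Its largest differences between smoke and sham were those after the break, and none passed the test over all probes. At 3 hours after smoke it averaged 1.32 ± 0.20 in 6 week smoke and 1.25 ± 0.26 in 6 week sham (SD, n = 5 each). It averaged 1.4 ± 0.17 in 12 week smoke (SD, n = 4) and 1.52 ± 0.20 in 12 week sham (SD, n = 5). The differences of 0.048 (0.071 without the array labelled 6 week sham replicate 2) and −0.14 were within the spread of the lungs.

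After the break Txnip was at 1.28, 1.11, 1.12, 1.06 and 0.67 in 6 week smoke and break, against 1.34, 1.49, 1.60, 1.64 and 1.2 in 6 week break sham. It was at 1.41, 1.08, 1.18, 1.14 and 1.28 in 12 week smoke and break, against 1.66, 1.41, 1.42, 1.49 and 1.51 in 12 week break sham. At 12 weeks the groups met at 1.41, and at 6 weeks 1 smoke lung reached into the sham range. Within label runs it was lower in smoke and break in 5 of 5 runs at 6 weeks, with differences of −0.58 to −0.058, and in 5 of 5 at 12 weeks, with differences of −0.33 to −0.23. How many of all probes share such a pattern was not computed. The model gave −0.41 (95% confidence interval −0.66 to −0.16, unadjusted p = 0.00244) at 6 weeks and −0.28 (−0.53 to −0.028, unadjusted p = 0.0308) at 12 weeks, and the adjusted p in limma were 0.999 and 0.749.

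The mean over both durations, a comparison added after these values had been seen, was −0.34 ± 0.087 (SE) for Txnip, or 0.788-fold, with an unadjusted p of 0.000443 and an adjusted p of 0.487 in limma. None of the 17560 probes passed in it (0%), and 1126 had an unadjusted p under 0.05. The lower level of Txnip after the break thus failed the correction over all probes. The smoke effect without the break minus that with it was 0.30 (95% confidence interval 0.039 to 0.55, adjusted p = 0.422).

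Prdx1, a cytosolic peroxiredoxin, lies on chromosome 4. Its spot was marked by the scanner software on 20 of 39 arrays, 18 times in Cy3 and 2 in Cy5. At 12 weeks it was at −0.60, −0.32, −0.44 and −0.52 in smoke, against −0.81, −0.75, −0.68, −0.70 and −0.80 in sham. These groups did not overlap, and it was higher in 4 of 4 label runs, by 0.21 to 0.43, but the difference of 0.27 (95% confidence interval 0.0056 to 0.54) had an unadjusted p of 0.0457 and an adjusted p of 0.518 in limma. The share of all probes whose groups separate in this way, or keep 1 sign in every run, was not computed, for Prdx1 or any other member. At 6 weeks it was at −0.77, −0.85, −0.65, −0.60 and −0.68 in smoke, against −0.37, −0.71, −0.60, −0.64 and −0.72 in sham, a difference of −0.10 with the groups overlapping, or −0.12 without the array labelled 6 week sham replicate 2. The 12 week difference was 0.37 higher than the 6 week one (unadjusted p = 0.0457, adjusted p = 0.971 in limma). After the break the differences were −0.18 at 6 weeks and 0.23 at 12 weeks, and neither passed.

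Prdx2, the peroxiredoxin abundant in red blood cells, lies on chromosome 8 and was printed as 10 spots of 1 probe on each array. The SD of those spots within an array had a median of 0.0842, against an SD of 0.129 over the 39 arrays. Prdx2 had at least 1 spot saturated in Cy5 on 7 arrays. It averaged −0.41 ± 0.077 in 6 week smoke and −0.31 ± 0.19 in 6 week sham (SD, n = 5 each), and −0.42 ± 0.083 in 12 week smoke (SD, n = 4) and −0.30 ± 0.080 in 12 week sham (SD, n = 5). Within label runs 0 of 4 differences were above 0 at either duration. The model gave −0.099 (95% confidence interval −0.25 to 0.055) and −0.14 (−0.30 to 0.026), with adjusted p of 0.788 and 0.649 in limma, and the 6 week one was −0.11 without the array labelled 6 week sham replicate 2. After the break the differences were −0.068 and 0.079.

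**Figure D4:**
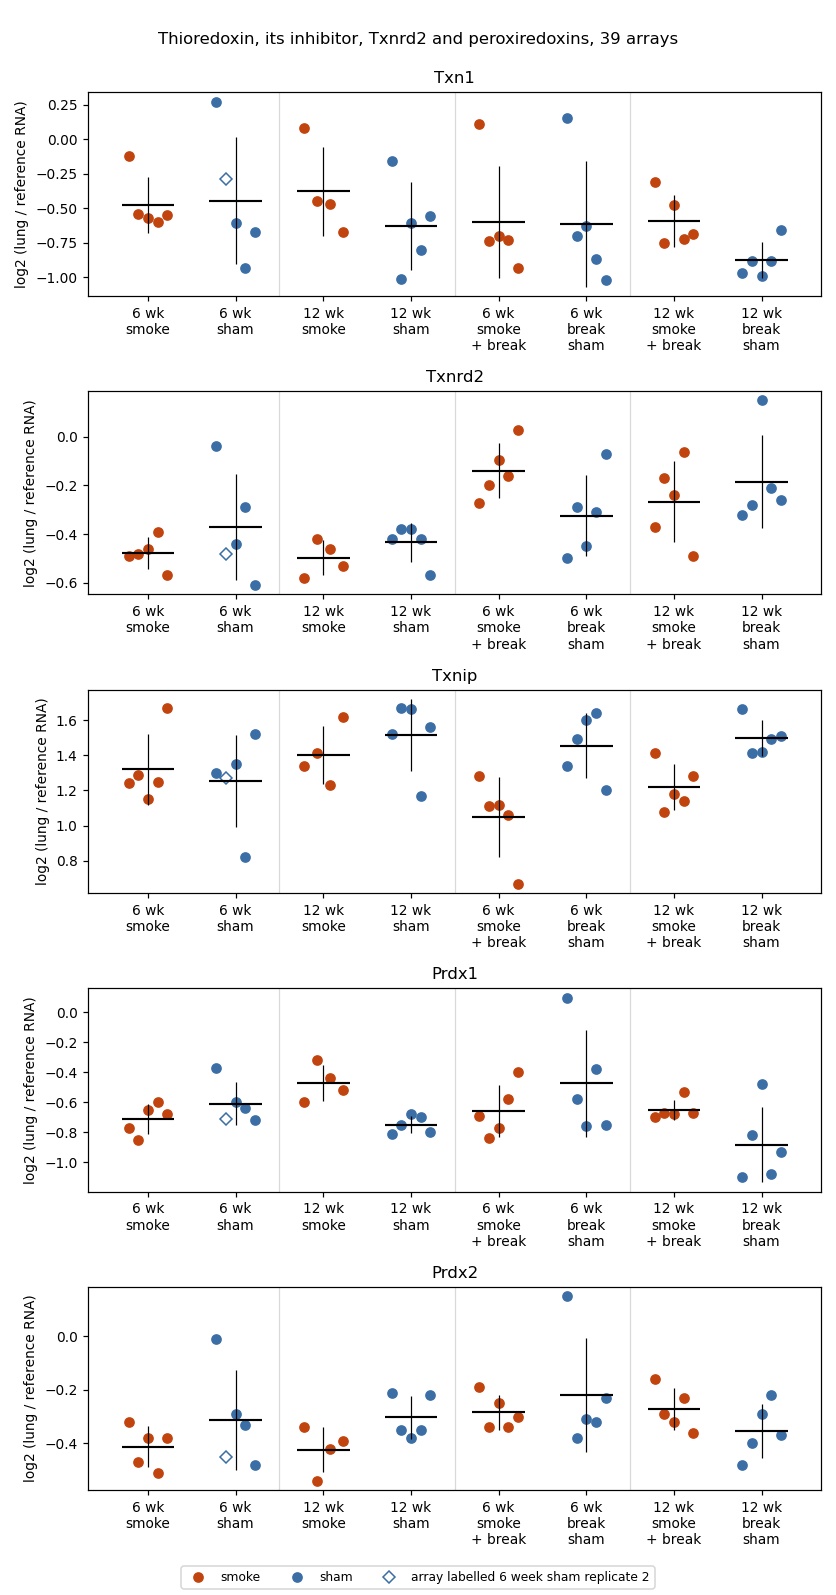
Log2 ratio of lung to reference RNA (vertical axis) for Txn1, Txnrd2, Txnip, Prdx1 and Prdx2 in the 8 groups, 1 point per lung, with horizontal bars for group means and vertical lines for 1 SD. Txnip lies from 0.67 to 1.41 in the 10 smoke and break lungs and from 1.2 to 1.66 in the 10 break sham lungs, and Prdx1 in 12 week smoke (−0.60 to −0.32) lies above 12 week sham (−0.81 to −0.68).

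The rest of the pathway was described by fixed lists, with 1 probe a gene. Of 20 other Nrf2 responsive genes, 18 were measured. At 12 weeks 8 rose and 0 fell in smoke, against 0.433% of all probes called, with a median of 0.67. They were led by Gclc, the catalytic subunit of the enzyme that starts glutathione synthesis (2.06, adjusted p = 0.000346 in limma), Hmox1, heme oxygenase (2.05, 0.00198), Nqo1, a quinone reductase (1.96, 2.03e-06) and Cbr3, a carbonyl reductase (1.84, 2.7e-05). At 6 weeks 2 rose, Cbr3 (1.43, adjusted p = 0.00131) and Nqo1 (1.18, 0.00301), with a median of 0.34, against 0.0626% of all probes called. Without the array labelled 6 week sham replicate 2, 5 rose, against 0.188%. None was called in the 6 week or the 12 week comparison after the break, where the medians were 0.021 and 0.0065.

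In the next 4 lists no gene was called at 6 or 12 weeks. With 0.0626% and 0.433% of all probes called at those durations, a count of 0 in lists of this size says nothing particular about them. Of 14 other thioredoxin fold reductants, among them Txn2 and Txnrd3, 0 were called in either comparison of smoke with sham. At 12 weeks they lay from −0.25 to 0.23 with a median of 0.032, the largest differences being −0.25 for Nxn, nucleoredoxin, and −0.24 for Txnrd3, a reductase known from testis. At 6 weeks the largest were 0.33 for Txndc12 and −0.21 for Txndc17. Of 15 listed symbols for clients and regulators of thioredoxin, which include an older name of the same gene, 12 were measured and 0 called at either duration. There Sesn3, a sestrin, was at −0.25 and Msrb2, a methionine sulfoxide reductase, at −0.21 at 12 weeks, and Msrb3 at 0.31 and Msra at −0.30 at 6 weeks.

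Of 9 enzymes that supply NADPH, 8 were measured and 0 called. Pgd and Idh1, a pentose phosphate and an isocitrate dehydrogenase, were at 0.18 and 0.15 at 12 weeks and at 0.33 and 0.42 at 6 weeks. Of 7 genes of selenoprotein synthesis, which Txnrd1 needs for its selenocysteine, 0 were called at either duration, with Scly at −0.28 and Pstk at 0.21 at 12 weeks and Scly at −0.36 and Sephs2 at −0.23 at 6 weeks. Averaged over both durations, Scly, which releases selenium from selenocysteine, fell by 0.32 on the log2 scale (adjusted p = 0.0209 in limma). In that comparison 1.22% of all probes were called, and its values for the other lists are not given here.

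**Figure D5:**
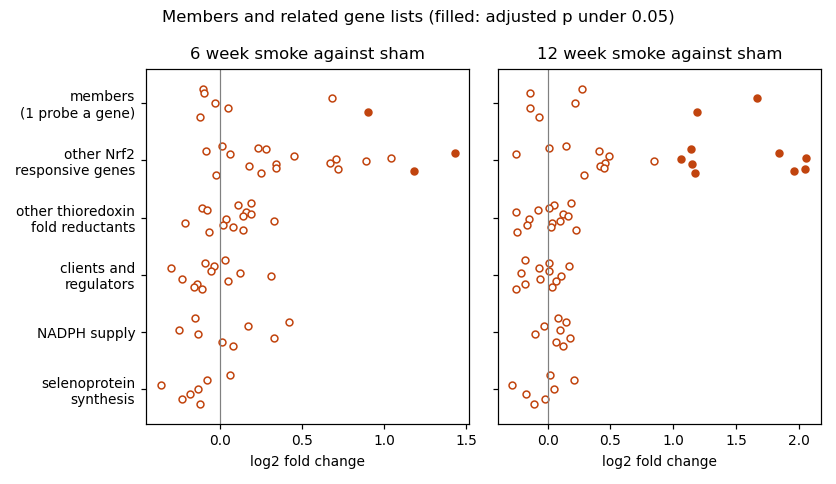
Log2 fold change of smoke against sham (horizontal axis) at 6 weeks (left) and 12 weeks (right) for the members and 5 lists of related genes, 1 point per gene, filled where the adjusted p was under 0.05. Filled points are found among the members and the other Nrf2 responsive genes, 8 of whose 18 measured genes are filled at 12 weeks, and in none of the other 4 lists.

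The genes whose pattern was most like that of Txnrd1 over the 39 arrays, after the mean of each label run was subtracted, were Nqo1 (Pearson's r = 0.967), Cyp1a1 (0.949), Aldh3a1 (0.944), Cbr3 (0.943) and Cyp1b1 (0.937). For Srxn1 probe a they were Hmox1 (0.967), Gclm (0.934), Nqo1 (0.931), Txnrd1 (0.921) and Cbr3 (0.921). These are descriptions over arrays that share the smoke groups and the reference RNA. Over the 29 arrays of the other groups, without the array labelled 6 week sham replicate 2, the same genes had r of −0.0326 to 0.507, and Txnrd1 and Srxn1 probe a had 0.0811.

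Markers of alveolar macrophages, phagocytes that increase in smoke-exposed airspaces, moved with the groups in which Txnrd1 and Srxn1 rose. Of 11 listed symbols, which include older names of the same gene, 8 were measured. At 12 weeks 8 of 8 were higher in smoke (median 0.64), and at 6 weeks 8 of 8 (median 0.70, or 0.81 without the array labelled 6 week sham replicate 2). In limma 0 were called at either duration. Averaged over both durations, 4 passed, Chil3 (1.52), Ctsk (0.77), Marco (0.75) and Itgax (0.54), against 1.22% of all probes, and 4 also passed without that array, against 1.62%. Their mean log2 ratio was 2.25 in 6 week smoke (2.03 to 2.80 over the lungs), against 1.55 in 6 week sham (1.28 to 1.98, the highest being the array labelled 6 week sham replicate 2), and 2.16 in 12 week smoke (2.04 to 2.38), against 1.46 in 12 week sham (1.21 to 1.87). After the break it was 1.78 in 6 week smoke and break and 1.85 in 6 week break sham, and 1.88 in 12 week smoke and break and 1.73 in 12 week break sham. The part of these markers in the rise of Txnrd1 and Srxn1 was not tested. Of the markers of 11 other cell types, 1 was called at 12 weeks, against 0.433% of all probes, and 0 at 6 weeks, against 0.0626%. It was the fibroblast collagen Col3a1, which fell by 0.80 on the log2 scale (adjusted p = 0.0275 in limma). Higher means in smoke were not particular to macrophages. Alveolar type I markers averaged 3.52 in 6 week smoke and 3.17 in 6 week sham, and 3.33 and 3.08 at 12 weeks. Club cell markers averaged 4.88 and 4.26, and 4.37 and 4.21. The ranges of these 2 types overlapped between smoke and sham. Means of alveolar type II, ciliated, endothelial, cardiac muscle and red blood cell markers were also higher in smoke at both durations. Neutrophil means were higher in smoke at 6 weeks and lower at 12 weeks, and B cell means were nearly equal. Fibroblast and T cell means were lower in smoke at both durations.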

How the data were processed

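Lung RNA (Cy5) and universal mouse reference RNA (Cy3) were hybridized by the authors to Agilent oligonucleotide arrays, 39 of which are used here, all in the same dye orientation. ImaGene was used by the authors to read the scans. Their deposited tables give, for each dye, the raw intensity of every spot and of the background around it. Normalized log2 ratios of sample to reference (global LOWESS) were deposited too, which served as an alternative and correlated with the values used here at 0.975 to 0.996 per array. No columns of fold changes or p-values were used.

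Spot and background medians were corrected by normexp (offset 50) and then normalized by loess on each array, where control spots had weight 0. The spots of a probe were averaged. A probe was kept where its Cy5 median exceeded the trimmed mean plus 3 trimmed SD (5% trimmed at each end) of the 162 negative control spots on 4 or more arrays of some group. All 39 arrays entered 1 model in limma 3.58.1 (R 4.3.3) with the 8 groups and, as a block, 5 runs read from the sequence of exposure-date labels. In the study the block was the hybridization and exposure dates, and 1 of 40 arrays was left out. P-values were adjusted by Benjamini-Hochberg over 17560 probes, with 0.05 as the threshold. Of the probes, 18235 had 1 gene symbol in the platform annotation, 30 had several and 2603 none, and only those with 1 were named.

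All members are named in each comparison. From each other list at most 4 genes past the threshold are named by size of change, or the 2 largest where none passed. The members and lists were chosen with earlier results of these data known. On simulated data for the 12 week comparison (17560 probes), the model recovered 98 of 100 probes changed by 1.5 on the log2 scale and 57 of 100 changed by 0.75, with 11 false calls. Replicate numbers follow the order of deposit and pair nothing. Each array is 1 mouse. Alternatives covered background correction, normalization, probe filter, spot marks, block, weights, the arrays fitted and the threshold. The number of arrays limits the precision, and saturated spots were kept.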

Additional observations from a re-analysis of the deposited data

Results flagged for a closer look

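For Txnrd1 and Srxn1 probe a the smoke effect differed between groups without and with a break, by 0.99 and 1.2 on the log2 scale, and the test of that difference in limma gave adjusted p of 0.000154 and 0.00824.

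In 9 of 64 sets of a member probe in a group, 1 lung stood far from the others by Dixon's criterion, which chance alone meets in about 1 of 20 sets. Srxn1 probe a was at 1.04 on the array labelled 6 week sham replicate 2, against −1.16 to −0.75 in the other sham lungs. Srxn1 probe b was at −0.34 in 12 week smoke replicate 4, against 0.11 to 0.19. Txn1 was at −0.12 in 6 week smoke replicate 1 (the others −0.60 to −0.54) and at 0.11 in 6 week smoke and break replicate 1 (−0.93 to −0.70), and both arrays belong to the first label run, in which Txn1 had a median of −0.02. Txnip was at 1.67 in 6 week smoke replicate 5 (1.15 to 1.29). Txnrd2 was at −0.57 in 12 week sham replicate 5 (−0.42 to −0.38) and at 0.15 in 12 week break sham replicate 3 (−0.32 to −0.21). Prdx1 was at −0.53 in 12 week smoke and break replicate 4 (−0.70 to −0.67), and Prdx2 at 0.15 in 6 week break sham replicate 1 (−0.38 to −0.23).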

How the results depend on the processing

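The count of member probes called was recomputed under 15 other settings and leaving out each array in turn. At 12 weeks it was 2 of 8 and became 1 with only the groups of the comparison fitted (Txnrd1 1.14, adjusted p = 0.103 in limma). At 6 weeks it was 1 of 8 and became 0 with marked spots at weight 0 (6 of 8 probes measured, Txn1 and Prdx1 being lost), 0 with only the groups of the comparison, and 2 with array quality weights (Srxn1 probe a 0.85, adjusted p = 0.0447). Fitting only those groups leaves fewer arrays for the estimate of the spread. The cause of these changes was not tested. The difference between the smoke effects without and with a break was called at 2 of 8 probes, and at 1 with no block. Leaving out 1 array gave 1 to 2 calls at 6 weeks, 2 only without the array labelled 6 week sham replicate 2, and 2 to 2 at 12 weeks. The counts for the mean smoke effect (2), the break comparisons (0) and the difference between durations (0) were the same under these settings and omissions. No member's called difference changed sign. Txnrd1 at 12 weeks ranged from 1.08 to 1.27 over the other settings and from 1.11 to 1.29 leaving out 1 array, and Srxn1 probe a from 1.53 to 1.81 and from 1.58 to 1.84. The difference of Txnip after the 6 week exposure and break ranged from −0.51 to −0.35 over the other settings, with adjusted p of 0.186 to 1. No paired analysis was possible because the replicate numbers follow the order of deposit and pair no mice. The label runs, which set mice of the groups side by side, were the block of the model instead. Saturated Cy5 spots of Txn1 and Prdx2 limit those probes, and saturation in Cy3 was not examined.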
